A study of Mus musculus with 4 samples.

Results

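Aerocytes (aCap cells) are the capillary endothelial cells that carry the endothelin receptor gene Ednrb and the carbonic anhydrase gene Car4, and in the lungs of 4 bleomycin-treated mice 472 of 32121 deposited single cells met the definition used for them here. A cell was taken when it had between 200 and 7500 detected genes and at most 15% of its unique molecular identifiers (UMIs, each standing for 1 captured mRNA) from mitochondrial genes. It also had at least 1 UMI of the endothelial cadherin gene Cdh5, UMIs of Ednrb, and UMIs of at least 1 more of Car4, Fibin, Apln and Tbx2. UMIs of Ptprc, Epcam, Pdgfra and Mki67, which mark immune, epithelial, fibroblast and dividing cells, had to be 0. Of 30860 cells within the limits on genes and mitochondrial UMIs, 3107 were Cdh5-positive and free of those 4 genes, so that the gated cells made up 15.2% of endothelial cells and 1.53% of all cells within the limits.

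The study compared 2 wild-type (WT) littermates with 2 Tubb3-/- mice, 8 to 11 weeks old. Lungs were taken 14 days after 0.8 U/kg bleomycin was given into the trachea, a model of lung fibrosis. The paper used both sexes outside its hydroxyproline experiment, and the sex of each of these 4 mice is not given. The Tubb3-/- mice were homozygous for a Cre knock-in placed in frame at the start of Tubb3, the gene of a beta-tubulin best known from neurons, so both Tubb3-/- mice carried the Cre gene and the WT mice did not. Each lung gave a whole-cell sample, depleted of TER-119-positive red cells, and a mural cell-enriched sample, depleted of CD31, CD45, EpCAM and TER-119. Samples were tagged and pooled by kind over the 4 mice, then sorted, the mural cell-enriched pool on MCAM and PDGFRα. A library here means the cells of a pool that the tags assign to 1 mouse. All 4 lungs received bleomycin, so no untreated lung enters any comparison, and 2 mice per genotype are the replicates throughout.

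Aerocytes are large, thin capillary cells that face the alveolar gas-exchange surface and are particular to the lung. They lie in the alveolar capillary net beside general capillary (gCap) cells, which express Gpihbp1, Kit and the apelin receptor Aplnr and which serve as progenitors that renew the capillary bed. Aerocytes depend on vascular endothelial growth factor A from the alveolar epithelium, signalling through its receptor Kdr, and they produce apelin, the ligand of the receptor on general capillary cells.

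The 8 libraries held between 41462258 and 95036340 gene UMIs, with medians of 9186 to 16299 per cell. Gated cells came from every library: 58 and 68 from the WT and 89 and 85 from the Tubb3-/- whole-cell libraries, and 34, 36, 52 and 50 in the same order from the mural cell-enriched ones. Their median depth was 9098 UMIs and 3338 genes per cell, against 6885.5 UMIs in the 1848 general capillary cells used for comparison. Those cells were Cdh5-positive with the same 4 genes at 0, had Gpihbp1 and at least 1 more of Kit, Aplnr, Plvap and Sema3c, no Ednrb, and at most 1 of the other aCap genes. No cell barcode was shared within a pool, and libraries of different pools shared between 1 and 9. The targeted gene was almost absent from aCap cells in both genotypes: Tubb3 had a UMI in 3 of 472 cells (0.636%), 2 of them WT, against 0.217% of general capillary cells and 0.672% of immune cells. Cre had 1 UMI, in a Tubb3-/- cell.

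**Figure D1:**
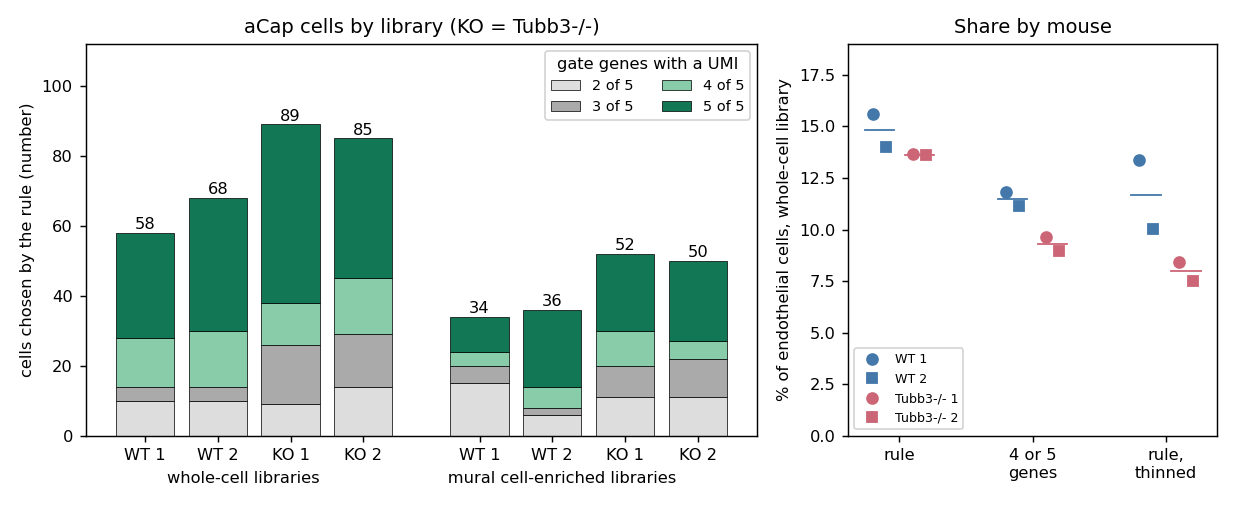
Number of gated cells per library, stacked by how many of the 5 gate genes had a UMI (left, KO standing for Tubb3-/-), and aCap cells as a percent of endothelial cells in each mouse's whole-cell library under 3 definitions (right; points are mice, lines are means of 2). Cells with 2 or 3 gate genes make up 27.7% of the whole-cell and 40.7% of the mural cell-enriched members.

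Among the gated cells the transcription factor gene Tbx2 was detected in 83.3%, Car4 in 81.4%, the secreted-protein gene Fibin in 75.2% and the ligand gene Apln in 59.5%; these genes chose the cells, so the shares describe the gate. All 5 genes were present together in 236 cells (50%). A further 83 cells had 4 of them, 67 had 3 and 86 had 2. Just outside the threshold were 121 endothelial cells with Ednrb alone. In general capillary cells, where at most 1 such gene was allowed, Car4 was found in 25.9%, Tbx2 in 5.52%, Fibin in 2.38% and Apln in 2.22%.

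On pooled levels, the label held for the cells with 4 or 5 gate genes and not for those with 2 or 3. The 10 other aerocyte genes that took no part in the gate (Igfbp7, Emp2, Kitl, Nrp1, Kdr, Pmp22, Chst1, Sirpa, Rprml and Cdkn2b) together reached 16379 CPM (UMIs of the gene per 1000000 UMIs, pooled over the mice) in cells with 5 gate genes and 14037 with 4. Their summed level was 4691 CPM with 3 gate genes and 3804 with 2, nearer to the 2097 of cells with Ednrb alone and the 1928 of general capillary cells. Emp2, a tetraspan membrane protein gene, stood at 3388, 2469, 518 and 151 CPM in cells with 5, 4, 3 and 2 gate genes, and Kdr at 1669, 1609, 269 and 154. The step lay between 3 and 4 genes.

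Smooth muscle genes moved the other way. Acta2, Tagln, Myh11 and Cnn1, which encode contractile proteins, summed to 13460 CPM with 2 gate genes and 8943 with 3, and to 605 with 4 and 475 with 5, the last 2 being close to the 579 of general capillary cells. Acta2 alone averaged 5306 CPM in cells with 2 or 3 genes and 242 in cells with 4 or 5. The sum of 10 endothelial genes (Pecam1, Cldn5 and others) was 2745 and 4108 CPM with 2 and 3 genes and 8806 and 8903 with 4 and 5. The 5 fibroblast genes summed to 2950 and 3748, then to 480 and 733. Scrublet, which scores likely doublets (2 cells under 1 barcode), called 11.6%, 7.46%, 3.61% and 1.27% of cells with 2, 3, 4 and 5 gate genes. In every library the smooth muscle sum was higher in the 2- or 3-gene cells, at 3474 to 10137 CPM against 62 to 689 in the whole-cell libraries and at 15258 to 21397 against 1030 to 1685 in the mural cell-enriched ones.

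**Figure D2:**
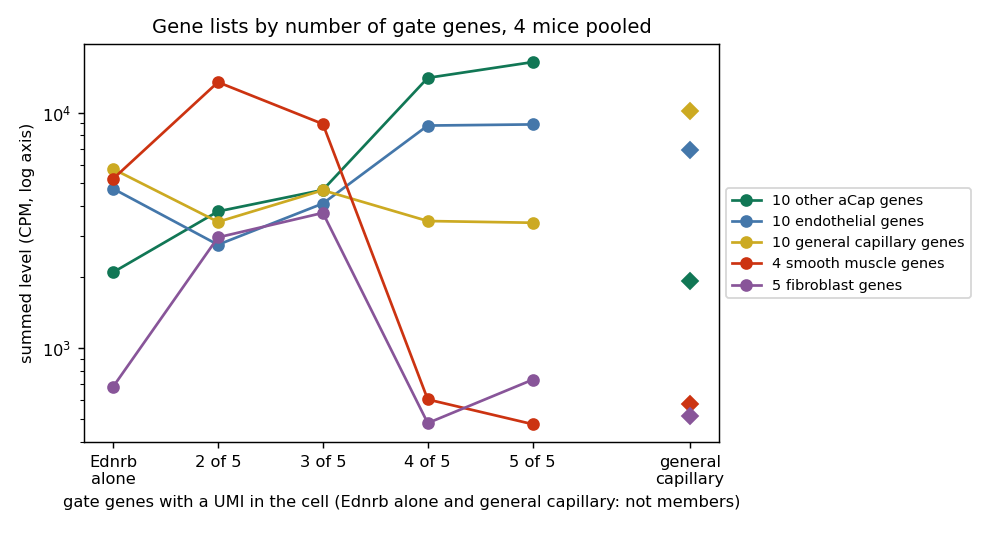
Summed level of 5 gene lists (CPM, log axis, 4 mice pooled) by the number of gate genes with a UMI in the cell, with Ednrb-alone and general capillary cells (not members) for reference. The 10 other aCap genes stand at 14037 and 16379 with 4 and 5 gate genes and below 5000 elsewhere, while the 4 smooth muscle genes stand at 13460 and 8943 with 2 and 3 and at 605 and 475 with 4 and 5.

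The gate as given therefore held 153 cells (32.4%) that, pooled, had mural and fibroblast transcripts and little of the aerocyte program, and 319 cells that, pooled, carried it. Pooled levels do not describe each cell: Acta2 was detected in 73.9% of the 153 and 55.2% of the 319, and Myh11 in 54.2% and 28.5%. In the whole-cell libraries 10 general capillary genes (Gpihbp1, Kit and others) summed to 2898 to 7477 CPM with 2 or 3 gate genes. With 4 or 5 they summed to 1440 to 5331 CPM there, and in general capillary cells to 9168 to 11608. Results below are given for all 472 gated cells, which the tests use, and beside them for the 319 with 4 or 5 gate genes, called core cells. The core was defined after these levels had been seen. It held 58 and 82 WT and 95 and 84 Tubb3-/- cells, with 427390 to 1030402 UMIs per mouse. Its 10-gene aCap sum ranged from 13084 to 19443 CPM over the 8 libraries. Its endothelial sum was 8605 to 9047 CPM in the whole-cell libraries and 8018 to 9662 in the CD31-depleted ones, so the kinds of library overlapped.

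The first question was whether the proportion of aCap cells differed with genotype. In the whole-cell libraries they were 15.6% and 14.0% of endothelial cells for WT and 13.7% and 13.6% for Tubb3-/-. Both WT values lay above both Tubb3-/- values, by little, and without WT 1 the difference was -0.40 points. With at least 3 gate genes the genotypes overlapped (12.9% and 11.96% against 12.3% and 11.4%), as they did with both libraries of a mouse together (16.9% and 13.8% against 15.4% and 15.1%). The means were 14.8% ± 1.11 (SD, n = 2) and 13.6% ± 0.0356 (SD, n = 2), a difference of -1.18 percentage points, with p = 0.333 in a two-sided exact permutation test; that is the smallest p that 2 mice against 2 can give, so no difference could have passed. For core cells the shares were 11.8% and 11.1% against 9.66% and 8.96%. As a share of all cells the order was different: 1.70% and 2.18% in WT and 2.13% and 2.46% in Tubb3-/- mice, overlapping, with p = 0.667 in the same exact test.

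The second question was how aCap cells differed from general capillary cells of the same lungs. The UMI sums of each class in each mouse entered edgeR's quasi-likelihood fit, with mouse as a term and the genes of both gates left out of the calls. Of 10372 genes, 3051 (29.4%) were called at an adjusted p under 0.05, 1561 (15.1%) higher and 1490 (14.4%) lower in aCap cells. In core cells the counts were 3072 of 9791 (31.4%), 1485 (15.2%) higher and 1587 (16.2%) lower. The lists overlapped incompletely: of the 1561 genes called higher in all gated cells, 950 (60.9%) were also called higher in the core, 353 were not called there, 48 were called lower and 210 were not tested. Of the 1490 called lower, 1154 (77.5%) were called lower in the core. Fold changes are log2 values of aCap over general capillary cells with their standard error (SE), and levels are CPM after library-size scaling (TMM).

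All 10 of the other aerocyte genes were higher in aCap cells, with a median log2 fold change of 3.08, beside -0.01 over all genes tested. In the core the median was 3.53 and all 10 were called, but the core was set after the levels of these genes had been seen. Rgs6, a regulator of G-protein signalling, had the largest rise in all gated cells of the genes named by the rule, and the third largest in the core. Its levels in gated cells of WT 1, WT 2, Tubb3-/- 1 and Tubb3-/- 2 were 1463, 1171, 1046 and 798 CPM, and in general capillary cells 12.05, 12.08, 11.1 and 8.41 CPM. The classes were far apart in every mouse, with a log2 fold change of 6.64 ± 0.11 (SE; edgeR adjusted p = 5.3e-10), and the core mean was 1684 CPM.

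The other large rises included genes of signalling, surface and matrix proteins. Pde8b, which hydrolyses cyclic AMP, averaged 249 CPM against 2.49 (log2 fold change 6.49 ± 0.16). Tmeff2 and Dpysl5, better known from the nervous system, rose by 6.46 and 6.47 on the log2 scale. Chst1, a sulfotransferase that modifies keratan sulfate, stood at 107, 209, 149.9 and 109 CPM in gated cells and at 0.524, 1.59, 3.71 and 2.59 in general capillary cells. Every mouse again separated the classes (log2 fold change 5.86 ± 0.23). Lmntd1, 2610203C22Rik, the matrix protein gene Egflam, Frrs1, Ccdc184, Tbx3os1 and Slc22a23 completed the 12 largest rises, between 5.00 and 5.93. The 12 largest rises in the core included 4 genes outside that list, Xpnpep2, Slc5a12, Dnah11 and Rprml. The leading pair was nearly missing from general capillary cells: Xpnpep2, an aminopeptidase, had 33, 52, 70 and 65 UMIs in core cells and 0, 0, 1 and 2 in general capillary cells, and the lactate transporter gene Slc5a12 had 49, 64, 43 and 72 against 0, 0, 1 and 4.

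Emp2 was at 2011, 2537, 2237 and 1755 CPM in gated cells and 71.8, 129, 114 and 139 in general capillary cells (log2 fold change 4.25 ± 0.16; core 4.88). Igfbp7, a secreted binding protein, averaged 4462 against 573 CPM (2.97 ± 0.11), and Kitl, the ligand of the Kit receptor that general capillary cells carry, 1737 against 314 CPM (2.47 ± 0.08). The progenitor and adhesion marker gene Cd34 was higher too, at 686 against 307 CPM (1.22 ± 0.17; core 1.79). Hopx, a homeodomain gene known as an alveolar type 1 epithelial marker, averaged 255 against 50.8 CPM (2.33 ± 0.12; core 2.96), while Ager, another marker of those epithelial cells, was at 8.21 and 10.4 CPM and was not called.

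**Figure D3:**
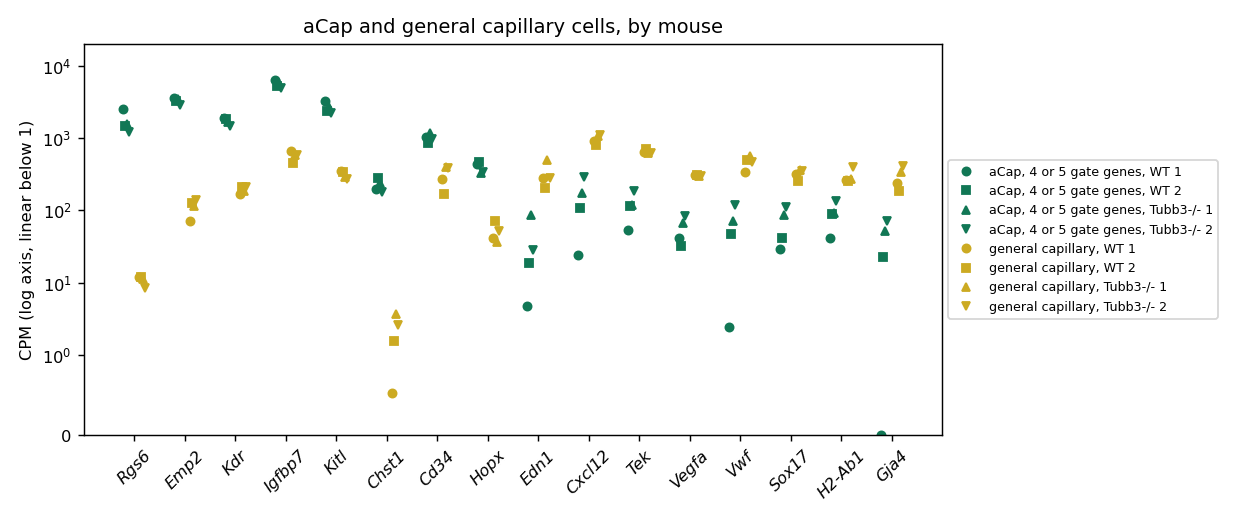
Level of 16 genes in core aCap cells and in general capillary cells of each mouse (CPM, log axis that is linear below 1; 1 point per mouse). Rgs6, Emp2, Kdr, Igfbp7, Kitl, Chst1, Cd34 and Hopx are higher in aCap cells of all 4 mice, and Edn1, Cxcl12, Tek, Vegfa, Vwf, Sox17, H2-Ab1 and Gja4 are lower in all 4.

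Among the falls in all gated cells, Edn1 led; in the core Mctp1 (-3.60), Scgb3a1 (-3.43) and Chrm2 (-3.25) fell more. It encodes endothelin-1, a ligand of the receptor that Ednrb encodes. Edn1 was at 13.8, 22.4, 98.3 and 41.9 CPM in gated cells and at 277, 208, 494 and 277 in general capillary cells. The classes did not overlap, although Tubb3-/- 1 was high in both (log2 fold change -2.91 ± 0.22; core -3.18). The other 11 largest falls were Scgb3a1, Gna14, Mctp1, Cadm1, Kazn, Cmah, the gap junction gene Gja4, Myrip, Mcf2l, Sema3g and the chemokine gene Cxcl12, from -2.81 to -2.25. All 24 of these genes kept their direction and call under every one of the 13 alternatives tried.

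General capillary genes that took no part in either gate were lower in gated cells without exception, 5 of 5 (median log2 fold change -2.12). Cd93 averaged 349 against 1271 CPM, the receptor phosphatase gene Ptprb 481 against 2015 and the incretin receptor gene Glp1r 69.0 against 301. In the core Tmem100 was no longer called (log2 fold change -0.25). Of 6 genes linked to activated capillary cells after injury 4 were lower and 1, the collagen gene Col15a1, was higher; in the core 5 were lower, Col15a1 among them, and none higher. Ntrk2, the receptor of brain-derived neurotrophic factor, averaged 50.3 against 191 CPM, and Lrg1, a secreted glycoprotein gene, 285 against 560.

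Arterial and venous genes were mostly lower. Of 6 arterial genes tested, 5 fell, among them Gja5, Hey1 and Efnb2, and the 1 that rose, Mgp, was not called in the core (5046 against 1906 CPM in all gated cells, 2323 against 1901 in the core). Of 7 venous genes, 3 fell and 2 rose in all gated cells, and 7 fell in the core. Vwf, the von Willebrand factor gene, was at 47.6, 113, 122 and 196 CPM in gated cells and 336, 505, 561 and 475 in general capillary cells (-2.04 ± 0.19; core -2.97). Nr2f2 and Cpe turned from higher to lower when only core cells were used, with log2 fold changes of 0.67 and 1.69 in all gated cells and -1.08 and -0.87 in the core.

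Genes of the VEGF and angiopoietin families went both ways, among receptors as well as ligands. Kdr, the main VEGF-A receptor, was at 1068, 1472, 1095 and 918 CPM in gated cells and 168, 213, 186 and 212 in general capillary cells. It was higher in aCap cells of all 4 mice, with a log2 fold change of 2.53 ± 0.12 (core 3.14), and its co-receptor gene Nrp1 by 1.14 ± 0.10 (core 1.68). Flt1, the other VEGF-A receptor gene, was not called (996 against 1122 CPM). The ligand gene Vegfa was at 47.6, 69.1, 107 and 106 CPM against 309.6, 312, 300.5 and 302 in general capillary cells (-1.89 ± 0.18), and Vegfc fell by 2.19 on the log2 scale. Tek, the angiopoietin receptor gene, averaged 156 against 649 CPM (-2.09 ± 0.20) and its relative Tie1 180.5 against 284 (-0.65 ± 0.10). The rises of Angpt1 and Angpt2, angiopoietin ligand genes usually made by mural and tip cells, were not called in the core. Of the 13 genes tested in these families 5 rose and 4 fell, and in the core 3 and 5.

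Vasoactive genes other than Edn1 showed smaller differences. The nitric oxide synthase gene Nos3 averaged 13.9 against 53.3 CPM (-1.84 ± 0.26) and Ece1, which activates endothelins, 282 against 467 (-0.73 ± 0.10). Hpgd, which degrades prostaglandins, was at 1241 against 2257 CPM (-0.87 ± 0.13). Ace and Calcrl were lower in all gated cells and level in the core (log2 fold changes of -0.36 and -0.41, then 0.03 for both). The endothelin receptor gene Ednra and the prostacyclin synthase gene Ptgis, higher in all gated cells, were not tested and not called in the core respectively. Of 10 genes tested 2 rose and 6 fell.

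Notch genes were lower where they were called, with 1 exception: 6 of 11 fell, including the ligand gene Dll1 (21.5 against 89.1 CPM) and the target genes Hey1 and Nrarp, and Heyl rose, a gene also expressed by mural cells that was not tested in the core. Of 17 BMP and TGF-beta genes 3 rose and 4 fell. Bmp6 averaged 139 against 519 CPM (-1.89 ± 0.22), whereas the endothelial receptor gene Acvrl1 was at 846 against 698 (0.27 ± 0.09; core 0.77). Of 10 general endothelial genes, Cldn5 was higher and Sox17, Sox18, Tie1 and Erg were lower, and Pecam1 stood at 1247 and 1151 CPM, not called. In the core the balance of this list was the other way, with 4 higher and 3 lower (median 0.11 against -0.27 in all gated cells), and Pecam1 was at 1689.5 against 1148 CPM, called higher. Sox17 changed most, at 66.4, 59.0, 114 and 121 CPM against 315, 259, 358 and 351.

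Antigen presentation separated the classes by type. All 7 MHC class II genes tested were lower in aCap cells (median log2 fold change -1.78 in both cell sets). Cd74, the invariant chain gene, was at 96.5, 136, 152 and 282 CPM in gated cells and 515, 348, 616 and 1128 in general capillary cells. Each mouse's aCap value was below its own general capillary value and below all 4 of them, and Tubb3-/- 2 was highest in both classes (-1.94 ± 0.15). Ciita, the class II master regulator, fell by 1.81 on the log2 scale. Of 7 class I genes 2 fell in all gated cells, and in the core B2m and H2-T23 were called higher. Interferon-induced genes were lower as a group, 20 of 33 with none higher (median -0.63), for example Iigp1 (127 against 322 CPM), Irf1 (258 against 414) and Isg15 (71.9 against 124). In the core 16 of 32 were lower and 1, Ifi35, higher.

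Leukocyte adhesion genes split: Icam2 averaged 1053 against 572 CPM (0.87 ± 0.09; core 1.45), the membrane-bound chemokine gene Cx3cl1 57.0 against 22.7 (1.34 ± 0.15) and Cd274, the gene of the checkpoint ligand PD-L1, 28.3 against 15.1 (0.91 ± 0.18), while Vcam1, Jam2, Cxcl12 and the selectin gene Sele were lower. The fourth gene that was higher, Cxcl1, was not called in the core. Of 7 junction genes, Ocln and Cldn5 were higher and Jam2 and Tjp1 lower, and in the core 4 were higher and Jam2 lower.

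Of 13 genes of the p53 and senescence response 6 were higher and none lower (median 0.59; core 0.52). Phlda3, a p53 target, was at 184, 224, 208 and 232 CPM in gated cells and 78.1, 99.1, 123 and 132 in general capillary cells, without overlap (0.98 ± 0.11; core 1.41). Gdf15, a stress-induced cytokine gene, averaged 69.2 against 16.1 CPM (2.07 ± 0.28), and Trp53inp1 79.0 against 41.8. Cdkn2a, the senescence-associated cell cycle inhibitor gene, had 9, 17, 16 and 20 UMIs in gated cells against 1, 0, 3 and 8, and Cdkn2b averaged 41.5 against 2.24 CPM. Cdkn1a, which encodes p21, was level at 751 and 768 CPM, and Mdm2 and Bax were not called.

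Several lists gave other counts once the 2- or 3-gene cells were left out. Smooth muscle genes were higher in 4 of 4 (median 3.08) and fibroblast genes in 5 of 5, and in the core 0 of 4 and 2 of 5 were called. The core was set after the levels of these lists had been seen. Basement membrane genes were higher in 7 of 12 and lower in 2; in the core 3 were higher and 3 lower, with Lamc1 (1.46 ± 0.10; core 1.68) and Col18a1 (2.53 ± 0.10; core 1.25) called in both. Immediate early genes, which also respond to tissue dissociation, were higher in 4 of 12 and lower in 2, and in the core lower in 7 and higher in none. Hypoxia and glycolysis genes were lower in 3 of 12 and in the core in 7, Ndrg1 and Epas1 in both. Caveolar and lipid transport genes were lower in 5 of 8, including Cav1, Aqp1 and Lpl, and Fabp4 was not called in gated cells.

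**Figure D4:**
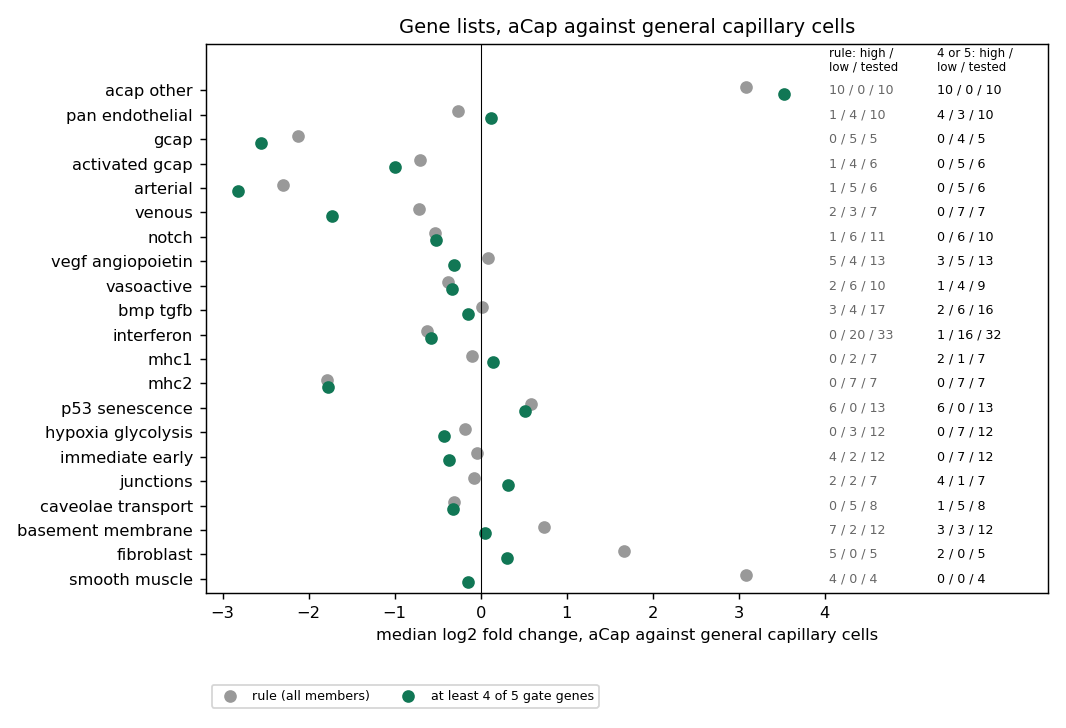
Median log2 fold change of 21 gene lists between aCap and general capillary cells, for all gated cells (grey) and for core cells (green), with the number of genes called higher, called lower and tested at the right. The other aCap genes stand at 3.08 and 3.53 and MHC class II at -1.78 in both sets, whereas smooth muscle genes stand at 3.08 in all gated cells and -0.15 in the core. The core was set after levels of the other aCap, smooth muscle and fibroblast genes had been seen.

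The third question was the effect of Tubb3 loss on aCap cells after bleomycin. Of 9973 genes tested over the 4 mice with edgeR, 0 were called (0%), with 496 at an unadjusted p under 0.05 and a smallest adjusted p of 0.624; DESeq2 called 3. In core cells 0 of 8564 were called, with 719 at an unadjusted p under 0.05 and a smallest adjusted p of 0.117. The values below describe the genes with the lowest p and those of fixed lists, and none is a called difference. Depth differed in the same order: the median gated cell had 7891 and 8037.5 UMIs in the WT and 9880 and 10614 in the Tubb3-/- mice, and its part in these values was not tested.

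Ntrk2, described above among genes of activated capillary cells, was at 21.3 and 18.5 CPM in WT and 98.5 and 64.4 in Tubb3-/- gated cells, a log2 fold change of 2.03 ± 0.30 (edgeR adjusted p = 0.624). The genotypes were apart here and also in the core, at 19.4 and 21.8 against 84.4 and 61.9 CPM. In the same fit with general capillary cells the order held less clearly there, since WT 1 (212 CPM, core fit) was above Tubb3-/- 2 (198 CPM). With every cell reduced to 2000 UMIs, Ntrk2 was found in 3.30% and 2.91% of WT and 9.35% and 12.6% of Tubb3-/- gated cells, against 0.685% of immune cells. Lrg1 was at 188 and 93.7 against 439 and 427 CPM (1.63 ± 0.31), without overlap in gated cells and also in the core, but its log2 fold change was 0.17 once cells with general capillary genes were left out. Fxyd5, a regulator of the sodium pump, was at 125 and 101 against 227 and 154 CPM, apart here and overlapping in the core. Cxcl10, an interferon-induced chemokine gene, overlapped (51.3 and 21.6 against 69.5 and 21.5 CPM).

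Cdk19, a kinase of the Mediator complex, had the lowest p in the core. It stood at 38.8 and 50.5 CPM in WT and 135 and 117 in Tubb3-/- gated cells (1.49 ± 0.21). The groups were apart in both cell sets, but genes with the lowest p were named only where the genotypes did not overlap. Ptprz1 was at 6.25 and 6.18 against 32.0 and 45.9 CPM, and Samd5 at 8.75 and 7.21 against 31.4 and 40.6. Mmrn1, a gene of lymphatic endothelium and platelets, had 1 and 1 UMIs against 32 and 36; most of them lay in 2- or 3-gene cells, since the core level was 0, 1.36, 3.88 and 0 CPM. In the core Slc6a6, a taurine transporter gene, was at 9.68 and 25.9 against 66.3 and 93.4 CPM, the lipase gene Lpl at 36.3 and 76.2 against 211 and 141, and the laminin gene Lama1 at 0 and 2.72 against 26.1 and 33.5.

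Lower in the Tubb3-/- mice were Ereg, an EGF receptor ligand gene (40.0 and 28.8 against 4.23 and 4.06 CPM, -3.02 ± 0.38; 3 of its 74 UMIs in core cells and 71 in the mural cell-enriched libraries), Adam12, a metalloprotease gene (103 and 76.2 against 30.2 and 42.4), Gm13387, Shisa9 and Cxcl1 (140.0 and 72.1 against 37.5 and 33.7). Cxcl1 turned in the core, where its log2 fold change was 0.40, and Adam12 did not (184 and 101 against 28.1 and 56.9 CPM). In the core 9530026P05Rik, Slc8a1, Immp2l and Myh11 also had low p. The smooth muscle genes as a list were lower in the core in 4 of 4 (median -1.14), and the 5 fibroblast genes were higher in 5 of 5 (0.81). Acta2 overlapped, at 172 and 465 CPM in WT and 172 and 195 in Tubb3-/- core cells, whereas Myh11 and Cnn1 did not. The part of mural and fibroblast RNA in these values was not tested.

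No aerocyte or general capillary gene was called by genotype in aCap cells, and the summed levels of both lists overlapped between genotypes. The 10 other aCap genes summed to 11472 and 13504 CPM in WT and 11596 and 9897 in Tubb3-/- gated cells, with Tubb3-/- 1 above WT 1. The 10 general capillary genes summed to 1646 and 3984 against 3555 and 4520 CPM, with WT 2 above Tubb3-/- 1 and WT 1 far below the other mice. In the mural cell-enriched libraries alone WT 2 was the highest for the general capillary sum (1366 and 2601 against 1486 and 2330 CPM). Gene by gene, the other aCap genes had a negative log2 fold change in 10 of 10 (median -0.22; core -0.17), beside an all-gene median of -0.01. Of the gate genes, which chose the cells, Ednrb stood at 758 and 852 CPM in WT and 508 and 462 in Tubb3-/- cells, Fibin at 676 and 893 against 512 and 517, and Apln at 219 and 288 against 167 and 159. In these 3 genes, and in Car4 and Tbx2, both WT mice were above both Tubb3-/- mice, and Cdh5 overlapped. Such a separation of 2 mice from 2 has p = 0.333 in a two-sided exact permutation test. The share of all tested genes that separated in this way was not counted. Gpihbp1, Kit and 8 other general capillary genes were positive in 9 of 10 (median 0.83; core 1.04). Kit was at 38.8 and 74.2 against 139.5 and 138 CPM, and Cxcl12 at 86.3 and 214 against 289.9 and 278. WT 1 was the lowest mouse for Gpihbp1, at 160.0 CPM, and the step from WT 2 (405) to Tubb3-/- 1 (414) was small beside it, with Tubb3-/- 2 at 447.

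Counted by cell, 30.4% and 45.2% of WT and 46.8% and 57.0% of Tubb3-/- gated cells also passed the general capillary criterion of Gpihbp1 and another of its 5 genes. The kinds of library differed in this: the shares were 29.3% and 55.9% against 58.4% and 68.2% in the whole-cell libraries, and in the mural cell-enriched ones 32.4% and 25% against 26.9% and 38.0%, where the genotypes overlapped. With every cell reduced to 2000 UMIs, Gpihbp1 alone was found in 16.5%, 33.0%, 33.1% and 36.3% of the 4 mice's gated cells, against 0.913% of immune cells. WT 2 and Tubb3-/- 1 were nearly level in this measure, which is not the criterion used above. All 7 MHC class II genes had positive values (median 0.81, beside -0.01 over all genes), for example H2-Ab1 at 47.5 and 83.4 against 103 and 131 CPM. In general capillary cells the class II sum was also higher in the Tubb3-/- mice, at 1235 and 1084 against 1360 and 2342 CPM. The difference between the genotype effects of the 2 classes had a median of 0.20 for this list. Positive too were 11 of 12 hypoxia and glycolysis genes (0.38), for example Ndrg1 at 48.8 and 37.1 against 84.6 and 80.7. The hypoxia and glycolysis sum overlapped in general capillary cells (3535 and 3572 against 3851 and 3485 CPM). Interferon genes were positive in 16 of 32. Haemoglobin UMIs were uneven, 1 Tubb3-/- 2 core cell holding 7622 of that mouse's 7676 haemoglobin UMIs.

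**Figure D5:**
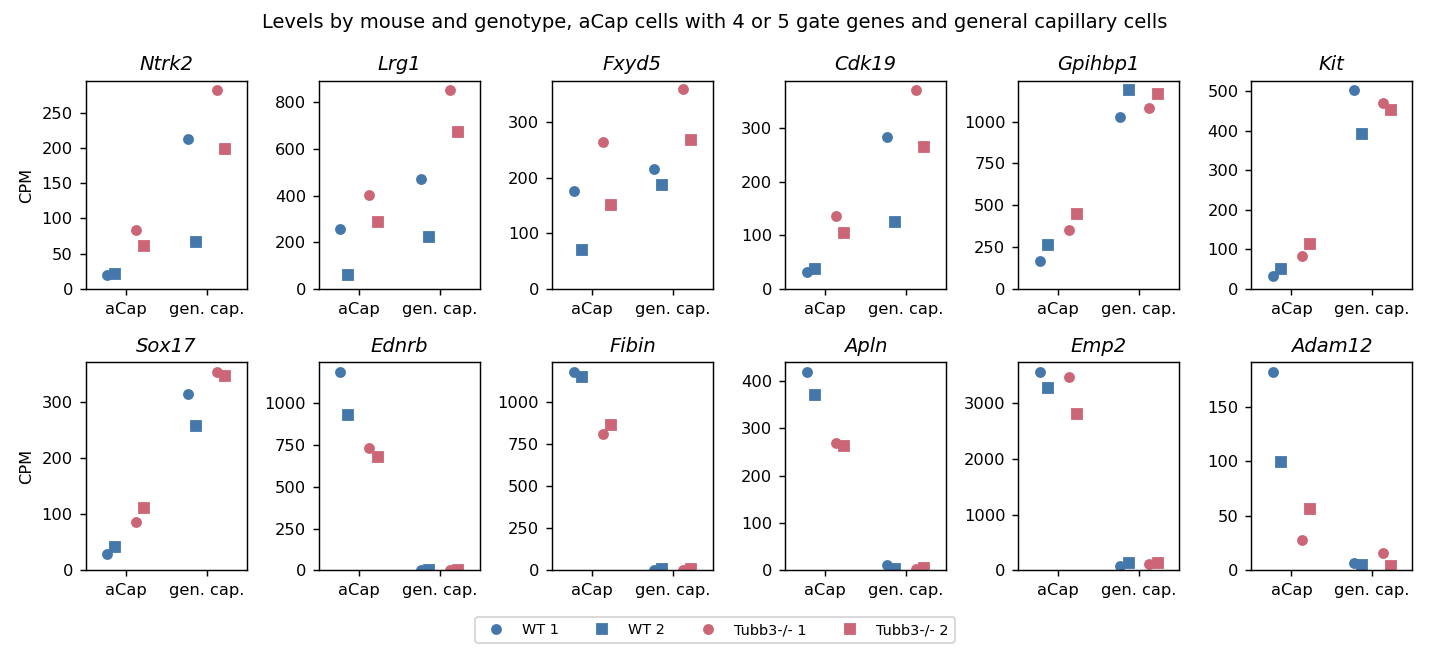
Level of 12 genes by mouse (CPM, 1 point per mouse; blue WT, red Tubb3-/-) in core aCap cells and in general capillary cells. In aCap cells Ntrk2, Lrg1, Cdk19, Gpihbp1, Kit and Sox17 separate the genotypes with Tubb3-/- higher, and Ednrb, Fibin, Apln and Adam12 with WT higher. Cdk19 and Adam12 were named by a rule that required this separation. No gene passed the adjusted threshold.

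The last question was whether the genotype effect in aCap cells differed from that in general capillary cells. The class by genotype term called 0 of 11193 genes (0%), with 458 at an unadjusted p under 0.05 and a smallest edgeR adjusted p of 0.130; DESeq2 also called 0, with 99 at an unadjusted p under 0.05. In the core 0 of 10530 were called. The lowest p belonged to Selp, the P-selectin gene, at 39.6 and 28.5 CPM in WT and 84.3 and 70.5 in Tubb3-/- gated cells, against 142 and 93.3 and then 55.1 and 61.6 in general capillary cells. The summed levels of the 2 classes thus moved in opposite directions, with a difference of 2.18 ± 0.24 on the log2 scale. Few cells carried the gene: Selp was detected in 4.6% of gated cells outside the core, 2.2% of core cells and 5.8% of general capillary cells. Its core UMIs were 1 and 6 in WT and 85 and 12 in Tubb3-/- mice, so most of them lay in Tubb3-/- 1. Samd5, Olr1 and the matrix gene Hmcn1 also moved in opposite directions in the 2 classes, and Fap was at 0 in both WT aCap samples. For Ntrk2 the difference was 1.097 (edgeR unadjusted p = 0.017, adjusted p = 1) and 0.77 in the core. The general capillary genes were positive in 10 of 10 (median 0.92, beside 0.02 over all genes), none of them called; the general capillary cells were chosen on 5 of those 10 genes.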

How the data were processed

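UMI counts per gene and cell were deposited as 8 matrices, made by the authors with Cell Ranger 7.1.0 on the mm10 genome with the Cre gene added, from 10x 3' libraries multiplexed with sample tags and split by mouse; these matrices hold raw counts of 32286 genes. Whether counting used strand is not given in the sources used here, and of 71 named genes 20 overlap another gene on the same strand in GENCODE vM21, Ntrk2, Rgs6 and Adam12 among them. The tag counts (26.2% to 36.4% of UMIs per library) and the pooled tag samples were not used. Libraries were tied to mice by their file labels and the tags in the extraction protocol. Symbols carried by more than 1 gene ID were kept in the counts with the ID appended. The 3 list genes of this kind, Ccl21a, Mx1 and Aldoa, were left out of the list results.

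Cells were chosen by the rule in the results; of the deposited cells 12 had too few and 275 too many genes, and 985 were above the mitochondrial limit. UMIs were summed over the chosen cells of both libraries of a mouse. Tests were edgeR 4.0.16 (filterByExpr, TMM, quasi-likelihood F test; R 4.3.3, limma 3.58.1) with p-values adjusted by Benjamini-Hochberg across every tested gene, on 4 sums for genotype and on 8 sums, with mouse as a term, for cell class and its interaction with genotype. Shares were compared with exact permutation tests (scipy 1.17.1). Scrublet, in scanpy 1.11.5, scored doublets per pool and marked 0.98% of whole-cell and 3.82% of mural cell-enriched cells; none was removed in the main results. Alternatives were the whole-cell library alone, doublet calls removed, a mitochondrial limit of 10%, at least 3 gate genes, cells with general capillary genes removed, DESeq2 1.42.0, its size-factor scaling (RLE), no filter on low counts, each mouse left out, a replicate block and, added after seeing the data, at least 4 gate genes. The scripts were tested on simulated counts with 200 changed genes. At a log2 change of 1 the fits recovered 23% of changed genes for genotype, 88% for class and 20% for the difference. At a log2 change of 2 they recovered 86%, 95% and 72%.

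Named genes were those of the gate and of fixed lists, and by rule the 12 largest called rises and falls of at least 50 CPM with the same direction in all 4 mice (class), the 5 lowest p in each direction of at least 10 CPM without overlap (genotype) and the 5 lowest p (difference). The members and lists were chosen with earlier results of these data known. Cells of 1 mouse counted as 1 replicate, so p-values rest on the spread between 4 mice. Counting error is larger in the WT sums (819021 and 971866 UMIs) than in the Tubb3-/- sums (1706386 and 1728329).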

Additional observations from a re-analysis of the deposited data

Results flagged for a closer look

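In 5 of the 24 genes named for the comparison of cell classes, 1 mouse of 4 stood apart in its log2 ratio of aCap over general capillary level, and each time it was WT 1. The ratio was 5.655 for Slc22a23 against 4.589 to 4.702 in the other mice. For the 4 others it was lower in WT 1: -3.912 for Gja4 (others -2.09 to -2.041), -3.894 for Mcf2l (-2.028 to -1.926), -4.614 for Sema3g (-2.046 to -1.826) and -3.397 for Cxcl12 (-1.992 to -1.885). Chance flags about 1 in 20 such groups. The gated cells of WT 1 had the fewest UMIs, 819021, and the lowest share that also passed the general capillary criterion, 30.4%. Their part in these ratios was not tested. All 5 genes kept their direction and call without WT 1.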

How the results depend on the processing

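The count of genes called by class stayed between 2196 and 3904 under every alternative, within 1.5 times of 3051, and the 24 genes named for it kept direction and call in all 312 recomputations. The count called by genotype was 0 and became 1 with the whole-cell library alone, 4 without doublet calls, 3 with DESeq2, 14 without a filter and 2 with a replicate block; leaving out 1 mouse gave 1 to 485, with 320 without WT 1 and 485 without WT 2. For the difference of genotype effects the count was 9 with the whole-cell library alone, 1 with at least 3 gate genes and 88 without a filter, and 0 to 37 with 1 mouse left out, 37 without WT 1 and 37 without WT 2. The cause was not tested; with a mouse left out, 1 genotype has a single mouse, assumed to vary like the others.

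The replicate numbers give no pairing that the labels explain: deviations of same-numbered mice correlated at 0.043 over 9973 genes. The share of aCap cells among all cells turned from 0.353 to -0.249 points without cells that carry general capillary genes and to -0.119 with every cell thinned to 2000 UMIs. The log2 change of Cxcl1 by genotype turned to 0.51 with at least 3 gate genes and to 0.40 with at least 4. That of Cxcl10 turned to -0.92 with the whole-cell library alone, -0.17 with at least 4 gate genes, -0.17 without WT 2 and -0.74 without Tubb3-/- 1, with a range of -0.74 to 1.06 over the mice left out. Depth limits the genotype results most in WT 1, whose gated cells held 819021 UMIs.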

Other observations

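The 121 endothelial cells with Ednrb and none of the other 4 gate genes were mixed by their transcripts. Their smooth muscle sum was 5229 CPM, against 579 in general capillary cells, their venous sum 3376 against 839 and their lymphatic sum 1811 against 608. The smooth muscle sum differed by library. It was 10033 to 31027 CPM over the mice in the 43 mural cell-enriched cells, against 1212 to 2613 in general capillary cells there. In the 78 whole-cell ones it was 70.5 to 311 CPM, against 111 to 296. Few of the 121 cells held the defining lymphatic genes: Mmrn1 was at 444 CPM in them and detected in 15.7%, and Prox1, the lymphatic master regulator gene, was at 134 CPM and detected in 19.01%. In core aCap cells the same genes were at 1.56 and 0.312 CPM, and in general capillary cells at 9.07 and 5.29 CPM. These cells were outside the gate and enter no comparison.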
